A study of Mus musculus with 6 samples.

Results

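The genes described here are 42 listed genes of protein folding, translocation, quality control and stress sensing in the endoplasmic reticulum (ER), out of 35527 genes with a matched transcript. They were taken by name and fall into 11 chaperones and cochaperones, 9 disulfide isomerases, 10 translocation genes, 8 genes of ER-associated degradation and 4 stress sensors. The RNA came from the entire pancreas of C57BL/6 mice at postnatal day 1. Wild-type mice (WT) gave 3 libraries and miR216a-/- mice, labelled KO, gave the other 3. Each library has its own donor mouse, and the animals of both groups were untreated and share strain, age and tissue. The sources used here do not say how the null allele was made, nor give the litters or the sexes. The microRNA itself was not analysed here, so the genotypes rest on the labels.

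The ER of the acinar cell folds more secreted protein per cell than almost any other, since that cell makes the digestive enzymes. Nascent chains enter through the SEC61 channel, lose their signal peptide, are held by HSPA5 and its partners and receive disulfide bonds from the protein disulfide isomerases. Chains that fail to fold are returned to the cytosol by the SEL1L and SYVN1 complex for degradation. Unfolded chains also switch on ATF6, IRE1 (encoded by Ern1) and PERK (encoded by Eif2ak3). ATF6 and the XBP1 form made by IRE1 raise transcription of folding genes, and PERK slows translation.

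Promoter sequences are shown first because the unfolded protein response acts on many of these genes through short elements near the start of transcription. RefSeq promoters (GRCm38.p6, 250 bases before to 50 after the gene start) were matched by symbol for 35 of the 42 members. Atf6, Derl1, Erp27, Hyou1, Manf, Sec61a1 and Ssr2 had no entry. On both strands, the ER stress element (ERSE), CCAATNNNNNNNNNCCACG, stood in 9 of the 35 promoters (25.7%), against 37 of 27025 genes with a promoter (0.137%). ERSE-II, ATTGGNCCACG, stood in Herpud1 and Dnajb11, 2 of 35 (5.71%) against 0.0444% of all genes. The UPR element core, TGACGTGG, stood in Txndc5 and Txndc11, also 2 of 35, against 0.714%. The 3 elements share letters but no promoter of a member held more than 1 kind. Of the 9 ERSE genes, 6 are chaperones (Hspa5, Hsp90b1, Calr, Canx, Dnajc3 and Creld2), 1 is the isomerase Pdia6, and Syvn1 and Derl3 serve degradation. None of the 8 translocation promoters and none of the 3 sensor promoters that could be searched held it. The members were listed by name as genes of ER folding and of this response. A share above that of all genes was therefore built into the list and is no finding of these data. A match is a string of letters and not a measured binding site.

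The stretches below show the element in capitals with its flanks in lower case, written 5′ to 3′ on the strand of the gene and ending before the gene start of RefSeq. In Derl3 the element lies in the opposite orientation, so its reverse complement is in capitals. They lie at chr2:34772020-34772048 (plus strand, Hspa5), chr11:50325775-50325843 (minus, Canx), chr14:118937802-118937870 (plus, Dnajc3), chr12:17266466-17266534 (plus, Pdia6), chr19:6046507-6046575 (plus, Syvn1), chr10:75893217-75893285 (plus, Derl3), chr8:94386352-94386412 (plus, Herpud1, ERSE-II) and chr13:38528020-38528077 (minus, Txndc5, UPR element core). GENCODE M21 places the gene start of Hspa5 earlier, so its element lies in the annotated 5′ UTR and is shown with short flanks. It also places the start of Txndc5 earlier, at 38528824, so that stretch lies within the annotated gene. The Txndc5 stretch lies in an exon of Gm31834, an antisense gene on the opposite strand, and the others lie in no annotated exon.
Hspa5: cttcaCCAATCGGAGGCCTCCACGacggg
Canx: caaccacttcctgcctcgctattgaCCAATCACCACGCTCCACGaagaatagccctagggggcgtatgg
Dnajc3: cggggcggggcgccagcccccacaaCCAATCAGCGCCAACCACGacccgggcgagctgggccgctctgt
Pdia6: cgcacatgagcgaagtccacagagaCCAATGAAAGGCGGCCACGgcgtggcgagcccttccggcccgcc
Syvn1: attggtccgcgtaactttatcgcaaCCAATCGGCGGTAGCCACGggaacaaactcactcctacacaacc
Derl3: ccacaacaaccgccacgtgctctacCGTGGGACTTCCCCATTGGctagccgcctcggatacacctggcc
Herpud1: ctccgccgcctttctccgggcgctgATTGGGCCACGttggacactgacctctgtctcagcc
Txndc5: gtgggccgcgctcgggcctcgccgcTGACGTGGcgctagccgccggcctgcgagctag

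The missing microRNA is the other sequence of interest, because a direct target could be higher without it. The mature miR-216a-5p, from chr11:28757018-28757039 on the plus strand, is shown with its seed (bases 2 to 8) in capitals, followed by the 2 seed matches found in the 3′ UTRs of stress sensors.
miR-216a-5p: uAAUCUCAgcuggcaacuguga
Xbp1, chr11:5525446-5525470, plus strand: tacagctttTGAGATTctagtttat
Atf6, chr1:170705082-170705106, minus strand: tgctctcttTGAGATTctaggtttt

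The longest annotated 3′ UTR of 7 of the 42 members held at least 1 match of 7 bases (TGAGATT, or GAGATTA), and 0 held the match of 8. The share was 16.7%, against 18.1% of the 15126 tested genes with an annotated 3′ UTR. Besides Xbp1 and Atf6 these were Calr, Txndc11, Edem1, Derl1 and Derl2. Their median log2 fold change in KO against WT was 0.10, and that of the 35 members without a match was -0.12, against 0.04 and -0.002 over all tested genes with and without a match. Eif2ak3, Herpud1, Sel1l and Txndc5, whose values are described below, had no match.

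Depth was even, from 20565387 to 23028718 estimated reads per library, and all 42 members passed the filter on low counts among 15805 genes tested. The libraries differed in ways that touch these results. Markers of acinar cells summed to 336500 CPM (counts scaled to library size by the TMM method) in KO 2, 266100 in KO 1, 284900 in KO 3 and 217300 to 308700 in WT, and mesenchyme markers to 5951 CPM in KO 2 against 9182 to 11410 elsewhere. Of 17 acinar markers, 9 had higher values in KO. The largest in KO 2, Amy2a5, stood there at 133900 CPM against 65530 to 94300 in WT. Ctrb1, the next, stood at 90440 CPM in KO 2 against 67170 to 97960 in WT. Collagen RNA (Col1a1, Col1a2 and Col3a1) made up most of the mesenchyme sum. Of 7 mesenchyme markers, Pdgfra and Pdgfrb were the 2 with higher values in KO, Pdgfra at 131 CPM in KO 2 against 92.3 to 97.2 in WT. Erythroid markers were highest in WT 1 (5940 CPM) and KO 2 (4787 CPM), against 1705 to 2836 in the other 4 libraries, and B cell markers followed the same order (51.6 and 46.7 against 10.05 to 19.6 CPM). Proliferation markers were at 225 to 592 CPM in KO and 777 to 970 CPM in WT, with all 8 lower in KO. The sum of endocrine markers was lower in every KO library (6748 to 7425 against 7534 to 9667 CPM), although 3 of the 10 markers had higher values in KO. That of endothelial markers was slightly higher (565 to 581 against 473 to 562 CPM), with 5 of 6 markers higher. Hepatocyte markers stood out in WT 1 (508 CPM against 153 to 209). KO 1 had 0.141 CPM of the Y-linked gene Ddx3y, against 61.8 to 102 CPM in the other 5. The Y-linked genes Eif2s3y (0 against 43.3 to 60.6 CPM) and Kdm5d (2.83 against 27.1 to 36.6 CPM) were also low in KO 1. The sex of KO 1 may thus differ from that of the other 5, which would leave sex unbalanced between the groups. No gene of the cell type and proliferation lists stood at 0 in any library. In bulk RNA from an organ, fewer cells of a type and less RNA per cell cannot be told apart, and the part of these differences in the results below was not tested except where a value is given.

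The comparison of KO with WT asks whether the folding machinery of the newborn pancreas differs when miR-216a is missing. With all 6 libraries, most folding, disulfide and translocation genes had lower means in KO, while the stress sensors and most degradation genes had higher means, and none of these differences passed the test. By edgeR's quasi-likelihood test, 0 of 42 members had an adjusted p under 0.05, as did 0% of all genes tested. Without adjustment, Eif2ak3 and Herpud1 were higher at p under 0.05, 2 members against a background of 5.62% of all genes, and Txndc5 was lower, 1 member against 7.00%. All KO libraries stood above all WT libraries for 1 member, Eif2ak3 (background 9.07%), and below them for 1, Txndc5 (background 10.3%). With all 6 libraries the members were thus separated or past the unadjusted threshold no more often than genes in general. DESeq2, with a higher background of calls (0.854% higher, 1.96% lower), called Eif2ak3 higher and 0 members lower, and limma-voom called 0.

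By direction alone, 29 members had a lower and 13 a higher value in KO, and the median log2 fold change was -0.10, against 0.01 over all genes tested. Lower values were found for 10 of 11 chaperones, 8 of 9 isomerases and 9 of 10 translocation genes, with medians of -0.105, -0.14 and -0.17. Higher values were found for 6 of 8 degradation genes and 4 of 4 sensors, with medians of 0.07 and 0.23. The direction of the degradation class turned with the libraries used: 2 were higher and 6 lower without KO 2 (median -0.072), 4 and 4 without WT 2 (-0.017), and 3 and 5 without WT 1 and KO 2 together (-0.046). Members of a class vary together across libraries, so these counts are not independent observations.

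**Figure D1:**
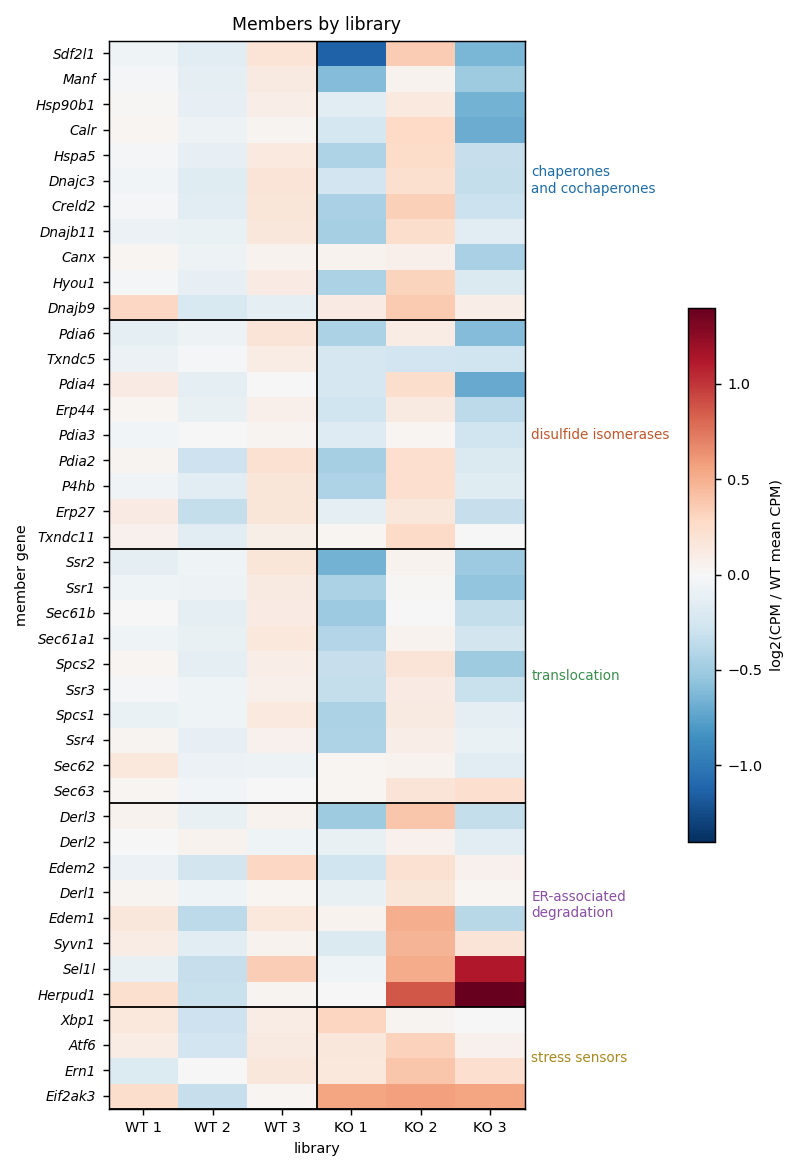
Each row is a member gene and each column a library, with colour giving log2 of its TMM-scaled CPM over the mean of the 3 WT libraries. Chaperones, isomerases and translocation genes are mostly blue in KO 1 and KO 3 and pale red in KO 2, while Eif2ak3 is red in all 3 KO libraries and Sel1l and Herpud1 are darkest in KO 3.

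Among the sensors, Eif2ak3 had the smallest p of the list. It encodes PERK, the kinase that phosphorylates the initiation factor eIF2 alpha, and lies on chromosome 6 from 70844515 to 70905245 (GRCm38). Its level was 73.5, 49.9 and 63.1 CPM in WT 1 to 3 and 91.3, 92.7 and 91.2 CPM in KO 1 to 3. All KO libraries lay above all WT libraries, and the KO libraries were nearly level with each other. The mean was 62.2 ± 11.9 CPM for WT and 91.7 ± 0.810 CPM for KO (SD, n = 3 here and throughout). The log2 fold change was 0.56 ± 0.14 (SE), with an adjusted p of 0.215 by edgeR's quasi-likelihood test and 0.0156 by DESeq2. Over the 16 alternative settings the adjusted p ran from 0.0156 to 0.669 and the log2 fold change from 0.42 to 0.70.

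Ern1 encodes IRE1, the kinase and endonuclease that cuts Xbp1 mRNA. It stood at 46.2, 53.2 and 59.2 CPM in WT and 58.5, 69.4 and 62.4 CPM in KO, so WT 3 lay just above KO 1. Its log2 fold change was 0.26 ± 0.12 (SE, edgeR adjusted p = 0.411). Atf6, the membrane-bound factor that is cut free in the Golgi, stood at 75.2, 58.2 and 75.9 CPM in WT and 78.1, 87.5 and 72.9 CPM in KO, with KO 3 inside the WT range. Its log2 fold change was 0.19 ± 0.13 (edgeR adjusted p = 0.597).

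Xbp1, which encodes the transcription factor made active by IRE1, was the most abundant sensor per length, at 194 ± 23.4 TPM in WT and 230 ± 39.1 TPM in KO. Atf6 and Ern1 were the lowest of all members on that scale, at 11.7 ± 0.869 and 10.06 ± 1.06 TPM in WT. In CPM, Xbp1 stood at 308, 226 and 297 in WT and 342, 285 and 276 in KO, and the groups overlapped. Its log2 fold change was 0.12 ± 0.14 (edgeR adjusted p = 0.778) and turned to -0.01 without WT 2. The 4 annotated Xbp1 transcripts hold only unspliced coding sequence, so cutting by IRE1 was not analysed here.

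**Figure D2:**
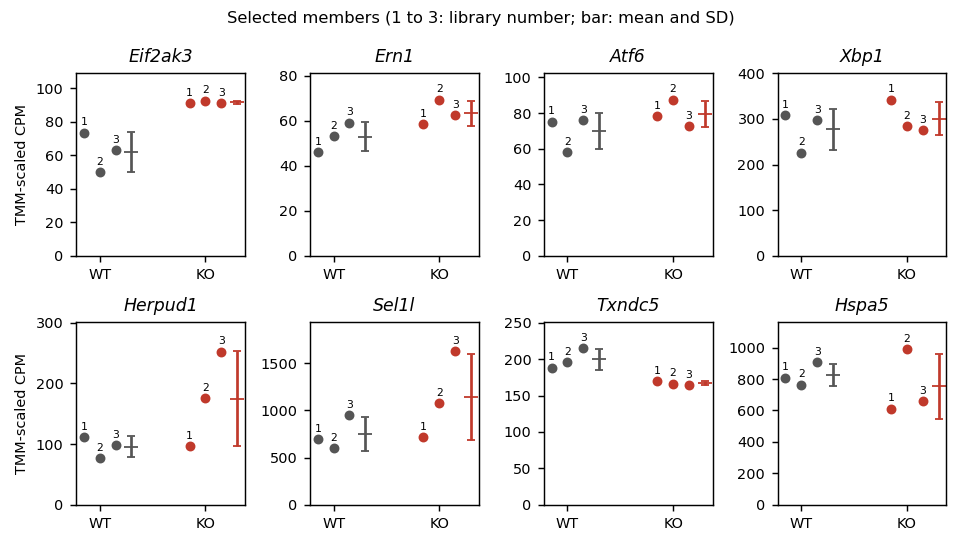
TMM-scaled CPM of 8 members, with 1 point per library numbered 1 to 3 and bars giving the mean and SD of WT (grey) and KO (red). Eif2ak3 separates the groups upward and Txndc5 downward, Herpud1 and Sel1l spread from WT levels in KO 1 to 252 and 1630 CPM in KO 3, and Hspa5 is high in KO 2 only.

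Herpud1 and Sel1l, both degradation genes, had the largest fold changes of the list with all 6 libraries, and both rested on KO 2 and KO 3. Herpud1 encodes a membrane scaffold of the retrotranslocation complex and lies on chromosome 8 from 94386438 to 94395377. It stood at 112, 77.0 and 98.5 CPM in WT and at 96.1, 176 and 252 CPM in KO. KO 1 lay within the WT range and KO 2 and KO 3 above it. The mean was 95.9 ± 17.7 CPM for WT and 175 ± 78.1 CPM for KO, a log2 fold change of 0.87 ± 0.31 (SE, edgeR adjusted p = 0.312). KO 1 was the lowest KO library for Herpud1, so leaving it out had to raise the estimate. Without KO 1, also the library low in Y-linked RNA, the log2 fold change was 1.16 and Herpud1 was called (edgeR adjusted p = 0.0353). In that fit 87 of all 16091 genes tested were called higher and 275 lower, against 0 in the main fit. Without KO 3, the highest KO library, the lowest estimate, 0.50, was reached.

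Sel1l, the adaptor that brings misfolded chains to the ubiquitin ligase, lies on chromosome 12 from 91806043 to 91849157. It stood at 696, 602 and 953 CPM in WT and 719, 1077 and 1630 CPM in KO. KO 1 again lay in the WT range, KO 2 above it and KO 3 furthest above. The log2 fold change was 0.61 ± 0.29 (SE, edgeR adjusted p = 0.450), and it was 0.26 ± 0.24 without KO 3. Per length it was the most abundant degradation gene, at 178 ± 25.1 TPM in WT and 296 ± 137 TPM in KO, while its partner ligase Syvn1 had 20.6 ± 2.06 and 22.5 ± 4.08 TPM.

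Syvn1 itself stood at 55.0, 45.8 and 53.0 CPM in WT and 44.5, 71.5 and 57.9 CPM in KO. The remaining degradation genes showed small differences with overlapping groups. Log2 fold changes were 0.10 ± 0.23 for Edem1 and 0.01 ± 0.17 for Edem2, lectin-like proteins that mark glycoproteins for degradation. For the derlins, channel components of retrotranslocation, they were 0.04 ± 0.10 (Derl1), -0.06 ± 0.09 (Derl2) and -0.09 ± 0.21 (Derl3). Derl3 ranged from 38.6 CPM in KO 1 to 71.7 CPM in KO 2, wider than the 50.8 to 56.8 CPM of WT.

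The chaperones were dominated by Hspa5, which encodes BiP, the Hsp70 of the ER lumen and a regulator of all 3 sensors. Hspa5 lies on chromosome 2 from 34771970 to 34777547 and stood at 809, 764 and 906 CPM in WT and 611, 988 and 660 CPM in KO. KO 1 and KO 3 lay below all WT libraries and KO 2 above all of them. Its log2 fold change was -0.13 ± 0.18 (SE, edgeR adjusted p = 0.813), and its mean was 826 ± 72.5 CPM for WT and 753 ± 205 CPM for KO. Per length it was the third most abundant member, at 455 ± 8.26 TPM in WT and 420 ± 73.1 TPM in KO, after the isomerases Pdia2 and P4hb.

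KO 2 was the highest KO library for all 11 chaperones, as it was for Hspa5. Sdf2l1, a partner of the Hsp40 cochaperone Dnajb11, had the lowest log2 fold change of the class (-0.34 ± 0.33) and, relative to its level, the widest spread in KO, with 35.7, 100.3 and 50.5 CPM in KO 1 to 3 against 70.5 to 89.5 CPM in WT. Manf, a secreted factor that binds BiP, stood at 152, 140 and 167 CPM in WT and 101, 159 and 109 CPM in KO (-0.32 ± 0.17, edgeR adjusted p = 0.498). Hsp90b1, the ER Hsp90, had -0.19 ± 0.18, and the lectin chaperones Calr and Canx had -0.17 ± 0.21 and -0.09 ± 0.14. Dnajb11, Dnajc3, Hyou1 (a nucleotide exchange factor of BiP) and Creld2 had values from -0.105 to -0.075. Dnajb9, a cochaperone of BiP, was the only chaperone with a higher value (0.20 ± 0.15, 30.3 ± 3.22 against 26.5 ± 5.13 CPM), with overlapping groups.

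Of the disulfide isomerases, Txndc5 was the 1 member separated downward. It encodes a protein with several thioredoxin domains and lies on chromosome 13 from 38500079 to 38528824. It stood at 188, 196 and 215 CPM in WT and 170.0, 166 and 164 CPM in KO. The groups did not overlap, and the KO libraries were nearly level. Txndc5 overlaps Gm31834 on the other strand, and whether the counting used strand is not stated in the sources used here. The log2 fold change was -0.26 ± 0.08 (SE, edgeR adjusted p = 0.275), and adjusted p ranged from 0.145 to 0.692 over the other settings.

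Pdia2, an isomerase known for its high expression in pancreas, was the most abundant member per length, at 1118 ± 93.8 TPM in WT and 1025 ± 223 TPM in KO. In CPM it stood at 1158, 924 and 1312 in WT and 819, 1332 and 983 in KO (log2 fold change -0.12 ± 0.20, edgeR adjusted p = 0.857). P4hb, the classical isomerase PDI, stood at 995, 927 and 1157 CPM in WT and 760.0, 1208 and 912 CPM in KO (-0.10 ± 0.18, adjusted p = 0.869). For both genes KO 2 was the highest library of all 6 and KO 1 the lowest. Log2 fold changes of Pdia3, Pdia4, Pdia6, Erp27 and Erp44 lay between -0.28 (Pdia6) and -0.08 (Erp27), and that of Txndc11 was 0.10 ± 0.11.

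The translocation genes gave the lowest class median with all 6 libraries in the main comparison (-0.17), but the isomerases were lower with the length offset (-0.18 against -0.16), with the deposited gene table (-0.196 against -0.172) and without WT 2 (-0.225 against -0.215), and the chaperones were lower without KO 2 (-0.376 against -0.33). Sec61a1, the pore subunit of the channel, stood at 260, 252 and 301 CPM in WT and 204, 280 and 227 CPM in KO (log2 fold change -0.19 ± 0.13, edgeR adjusted p = 0.605). Sec61b, a small subunit of the same channel and the most abundant translocation gene per length in WT (346 ± 8.50 TPM, against 298 ± 30.2 TPM in KO, where Ssr4 had 312 ± 40.3 TPM), stood at 106, 96.6 and 115 CPM in WT and 74.3, 106 and 84.2 CPM in KO (-0.26 ± 0.14). In both genes KO 1 and KO 3 lay below all WT libraries and KO 2 among them. The translocon-associated protein genes ran from -0.34 ± 0.18 (Ssr2) and -0.30 ± 0.15 (Ssr1) to -0.16 ± 0.13 (Ssr3) and -0.13 ± 0.14 (Ssr4), and the signal peptidase subunits Spcs1 and Spcs2 had -0.13 ± 0.15 and -0.18 ± 0.17. Sec62 was level (-0.02 ± 0.10), and Sec63, a J-domain protein that couples the channel to BiP, was the 1 member of the class with a higher value (0.15 ± 0.09, 117 ± 8.39 against 106 ± 2.48 CPM).

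**Figure D3:**
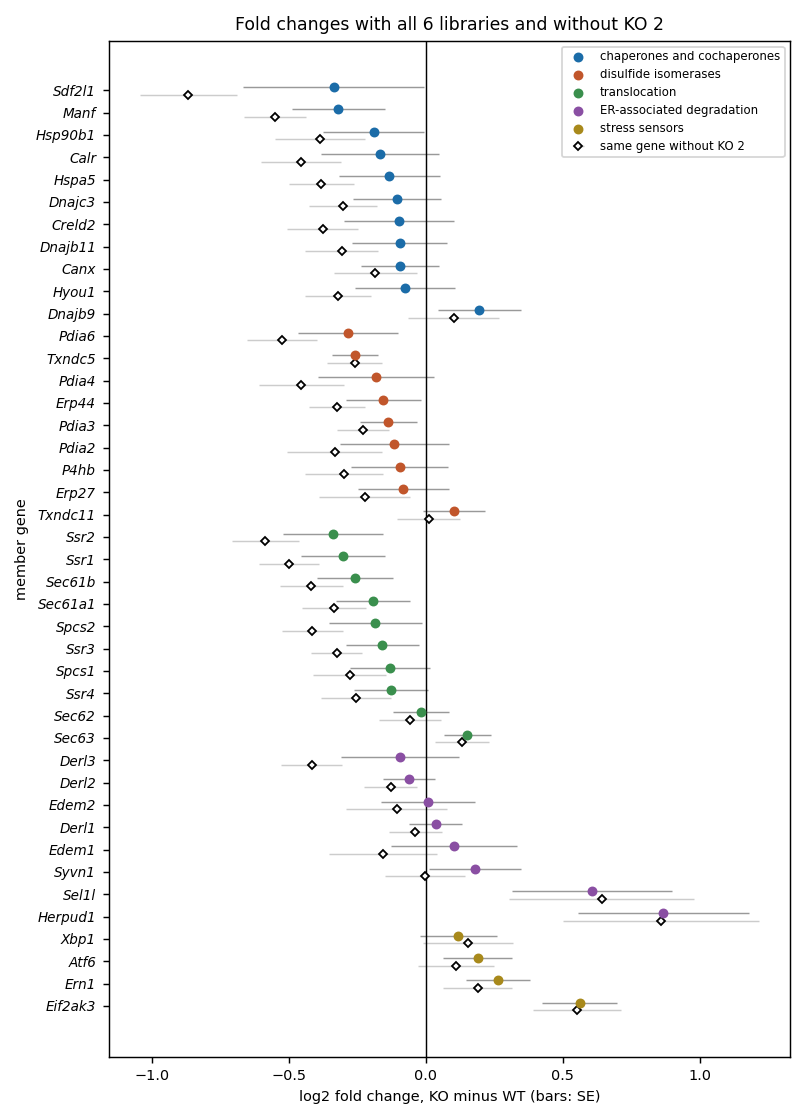
Log2 fold change of each member, KO minus WT, with its SE, from all 6 libraries (filled points, coloured by class) and without KO 2 (open diamonds). Without KO 2 nearly all chaperones, isomerases and translocation genes move further below 0, whereas Eif2ak3, Herpud1, Sel1l and Txndc5 hardly move.

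These values moved with which KO libraries were included. KO 2 was the highest KO library for 37 of 42 members, against 30.5% of all genes tested, and the highest of all 6 libraries for 26. KO 1 was the lowest KO library for 22 members and KO 3 for 20. The SD was larger in KO than in WT for 33 of 42 members, against 63.6% of all genes tested. Relative to the WT mean, the chaperone median on the log2 scale was -0.43 in KO 1, 0.26 for KO 2 and -0.33 for KO 3, while the WT libraries lay between -0.12 and 0.13. For translocation genes it was -0.42, 0.07 and -0.28, against -0.08 to 0.10 in WT. The sensor median was 0.23, 0.36 and 0.15, above all WT libraries (-0.28 to 0.13) each time. The 9 genes with an ERSE had medians of -0.27, 0.26 and -0.33 in KO 1 to 3, and the 26 without one -0.23, 0.20 and -0.16.

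**Figure D4:**
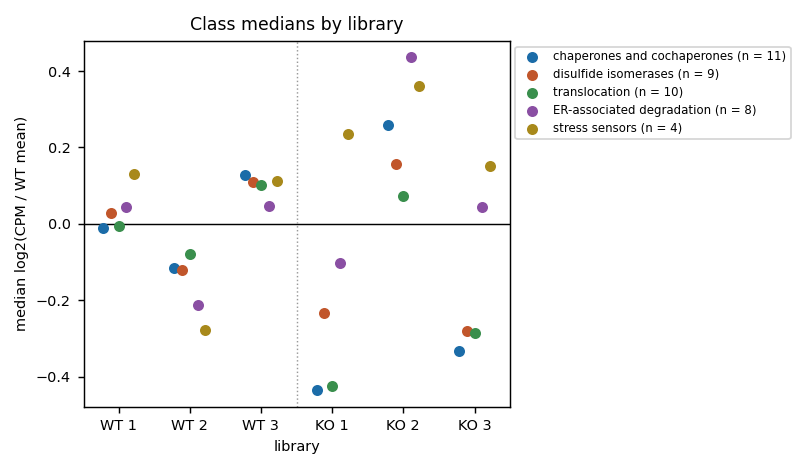
Median log2 of TMM-scaled CPM over the WT mean, for each of the 5 classes in each library. The chaperone, isomerase and translocation medians are below all WT libraries in KO 1 and KO 3 and positive in KO 2, and the sensor median is positive in all 3 KO libraries.

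KO 2 is taken first because it was the highest KO library for 37 of 42 members, against 30.5% of all genes tested. Leaving it out therefore had to lower the KO means of those members, and the shares of all genes are no like background. Without KO 2, 20 members had a lower value at an unadjusted p under 0.05 by edgeR, against 7.04% of all genes tested in that fit, and 2 (Eif2ak3 and Herpud1) a higher one. They comprised 8 chaperones, 5 isomerases, 6 translocation genes and Derl3. For 24 members both remaining KO libraries lay below all WT libraries, against 15.7% of all genes. The median log2 fold change of the members was then -0.29, with -0.87 ± 0.18 for Sdf2l1, -0.55 ± 0.11 for Manf, -0.59 ± 0.12 for Ssr2 and -0.38 ± 0.12 for Hspa5. No member or other gene reached an adjusted p of 0.05 in that fit, and the smallest among members was 0.312. KO 2 shared its high erythroid and B cell markers with WT 1, in which the chaperone median was -0.01, and without both libraries the median of the members was -0.31. KO 2 also had the highest sum of acinar markers, with Amy2a5 at 133900 CPM against 65530 to 94300 in WT, and the lowest sum of mesenchyme markers, mostly collagen RNA. The part of these sums was not tested. The acinar sums in WT 1 to 3 were 267400, 217300 and 308700 CPM, beside chaperone medians of -0.012, -0.116 and 0.129. In KO 1 to 3 the acinar sums were 266100, 336500 and 284900 CPM, beside chaperone medians of -0.435, 0.258 and -0.332. KO 1 was the lowest KO library for 22 of 42 members, so leaving it out had to raise the KO means of those. Without KO 1, 21 members were higher and 21 lower. At an unadjusted p under 0.05, 5 were then higher (11.9%, against 6.62% of all genes in that fit) and 1 lower (2.38% against 8.09%), and 6 lay wholly above WT (14.3%, below the 15.5% of all genes).

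The other genes of these pathways were taken from lists of their own. All 16 genes of N-glycosylation and glycan trimming had lower values in KO, with a median log2 fold change of -0.19. Of these, 6 had an unadjusted p under 0.05 by edgeR (37.5%, against 7.00% of all genes on the lower side) and 0 an adjusted one. The smallest p in the list belonged to Krtcap2 (52.7 ± 7.54 against 69.0 ± 9.12 CPM), Ost4 (33.8 ± 2.75 against 42.4 ± 5.06 CPM) and Ddost (155 ± 24.4 against 199.5 ± 19.5 CPM), subunits of the oligosaccharyltransferase. In all 3 genes the KO libraries were below the lowest WT library. For this list the KO medians were -0.27, -0.04 and -0.38, so KO 2 was again nearest to WT. Leaving KO 2 out had to lower the KO means of the genes in which it was highest, so the share of all genes is again no like background. Without KO 2, 9 of the 16 had a lower value at an unadjusted p under 0.05 (56.2%, against 7.04% of all genes). The count was 1 without KO 1 (6.25%, against 8.09%) and 2 without KO 3 (12.5%, against 6.4%). It was 4 without WT 1 (25%, against 6.36%) or without WT 2 (25%, against 4.73%), and 0 without WT 3 (against 4.09%).

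Redox enzymes outside the isomerase list gave 3 lower genes of 14 at an unadjusted p under 0.05 (21.4%, against the same 7.00% of all genes). Prdx4, the peroxiredoxin of the ER lumen, stood at 111, 109 and 125 CPM in WT and 78.3, 88.7 and 85.0 CPM in KO (log2 fold change -0.45 ± 0.09 SE, adjusted p = 0.205 by edgeR and 0.00507 by DESeq2). Its groups did not overlap. The glutathione peroxidases Gpx8 (17.95 ± 3.52 against 23.9 ± 1.67 CPM) and Gpx7 (11.9 ± 1.96 against 15.4 ± 1.38 CPM) were the others. With 1 library left out, the count of lower redox genes depended on the library. It ran from 1 without WT 2 (7.14%, against 4.73% of all genes) to 4 without KO 1 (28.6%, against 8.09%). Among 16 further chaperones, 4 were lower in every KO library (25%, against 10.3% of all genes). These were Cnpy2, Fkbp2, Dnajc10 and Calu, with log2 fold changes of -0.28, -0.28, -0.22 and -0.20. The first 3 had an unadjusted p under 0.05 (18.8%, against 7.00% of all genes). That count was 1 (6.25%) without WT 1 or without WT 3, against 6.36 and 4.09% of all genes. It was 4 without KO 1 (25%, against 8.09%). Of 22 further targeting and translocation genes, 0 passed even without adjustment, and the smallest p belonged to Emc10 (-0.16), Emc8 (-0.21) and Emc1 (-0.16), subunits of the ER membrane complex.

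Further degradation genes were split, with 14 of 24 higher. Vcp, the ATPase that extracts chains from the membrane, stood at 342, 334 and 373 CPM in WT and 278, 310 and 281 CPM in KO (-0.27 ± 0.09 SE, edgeR adjusted p = 0.284). It was the 1 gene of that list with an unadjusted p under 0.05 (4.17%, against 7.00% of all genes on the lower side). Herpud2, the paralog of Herpud1, had 0.26 ± 0.12 and the lectin gene Erlec1 0.17 ± 0.08. Of 19 tested sensors and stress outputs, 12 were higher and 2 of these had an unadjusted p under 0.05 (10.5%, against 5.62% of all genes on the higher side). These were Txnip, an arrestin-like protein that binds thioredoxin, and Chac1, a glutathione-degrading enzyme induced by ATF4. Txnip stood at 592, 475 and 435 CPM in WT and 736, 853 and 981 CPM in KO, and its groups did not overlap (0.77 ± 0.15 SE, adjusted p = 0.205 by edgeR and 0.000261 by DESeq2). Chac1 stood at 3.93, 1.64 and 2.52 CPM in WT and 3.67, 7.98 and 6.54 CPM in KO. Ddit3, which encodes CHOP, stood at 6.17 to 7.82 CPM in WT and at 7.30, 8.39 and 15.1 CPM in KO, with KO 3 highest. Atf4, translated more when PERK is active, was level in RNA at 118 ± 9.86 CPM for WT and 117 ± 17.0 CPM for KO. Bhlha15, the acinar factor MIST1, stood at 76.2, 39.6 and 67.7 CPM in WT and 71.3, 114 and 61.6 CPM in KO, with KO 2 highest. Prdx4 and Txnip were the 2 genes of these 6 further lists that DESeq2 called, and edgeR called 0.

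Transcript annotation gave a further readout, the division of each gene's reads between its transcripts. For 27 members, transcripts annotated as retaining an intron held at least 10 estimated reads on average. The share of the gene's reads on them was above every WT library in all KO libraries for 7 of the 27 and below for 0, against backgrounds of 13.0% and 3.06% of 5680 tested genes. Leaving out KO 1 raised the count to 16 (background 26.6%). The count was 8 without KO 2 (background 18%) and 8 without KO 3 (background 17.4%). The measure was chosen after its values were seen, and Salmon's division of reads between overlapping transcripts is an estimate. For Xbp1 the share was 5.82, 3.47 and 4.32% in WT and 8.10, 7.60 and 7.74% in KO. For Sel1l it was 5.54, 5.17 and 4.81% in WT and 6.31, 7.57 and 9.21% in KO, in the same order as its total among the KO libraries. The others were Derl2, Erp27, Pdia6, Sec61a1 and Txndc5, with means from 2.16 ± 0.351% (Pdia6) to 14.2 ± 0.254% (Derl2) in KO and from 1.04 ± 0.340% (Txndc5) to 11.4 ± 0.640% (Derl2) in WT. The median share over all 5680 genes was 8.95, 10.2 and 10.8% in KO 1 to 3 and 8.54 to 9.48% in WT.

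**Figure D5:**
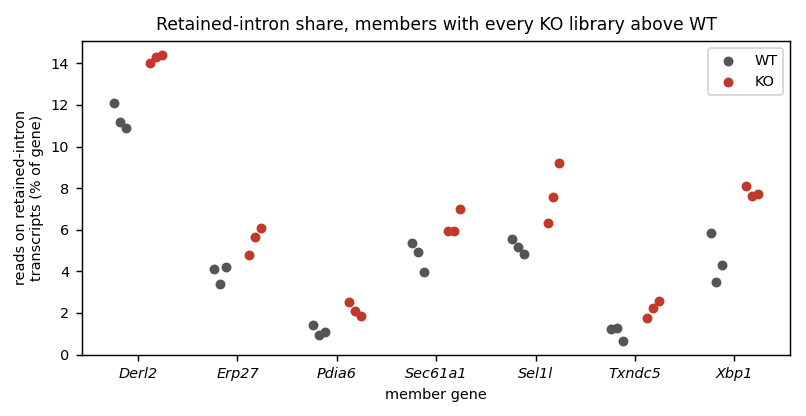
Percent of each gene's estimated reads on transcripts annotated as retaining an intron, for the 7 members in which every KO library (red) lies above every WT library (grey), with 1 point per library. Xbp1 has KO values from 7.60 to 8.10% against at most 5.82% in WT.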

How the data were processed

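Per the submitters' processing notes, reads were processed with bcl2fastq, Salmon 0.13.1 and DESeq2 1.24.0 on mm10. The sources used here do not name the transcript set. For each library the authors deposited estimated counts and TPM per transcript, per the file headers, and 115995 of 116248 transcripts matched GENCODE M21 (GRCm38). Salmon's effective lengths served 1 alternative. The authors also deposited a gene table holding a scaled signal, used in 1 alternative.

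Estimated counts were summed per gene (Python 3.11.15, pandas 2.3.3) and rounded. Groups were compared with the quasi-likelihood test of edgeR 4.0.16 (R 4.3.3, TMM, default filter, Benjamini-Hochberg over all 15805 genes). SE is the log2 fold change over the square root of F. CPM compares libraries, and deposited TPM compares genes per length. All 42 members, and the lists, were chosen with earlier results of these data known. The rule for values per library took members with an unadjusted p under 0.05 or groups that did not overlap, 8 fixed genes and each class's most abundant member, and from other lists the 3 smallest p. Ddit3 has 2 annotated identifiers, and the one with more reads was used. Alternatives were other scalings and filters, DESeq2 1.42.0, limma-voom (limma 3.58.1), a length offset, the deposited gene table with limma on log2(value + 1), and leaving out libraries. The tests were checked on simulated data. With 3 against 3 libraries, an exact permutation test cannot go below 0.1. P-values measure the spread between these 6 mice.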

Additional observations from a re-analysis of the deposited data

How the results depend on the processing

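No paired analysis was possible because the labels give the groups no shared replicate numbers. Where a value moved, the cause was not tested unless the setting itself, with fewer libraries, shows it. No member was called lower under any of the 16 settings run, and 1 was called higher with DESeq2 (Eif2ak3) and without KO 1 (Herpud1). Members with every KO library above WT numbered 2 (4.76%, against 7.61% of all genes) with upper-quartile factors. They also numbered 2 with digestive enzyme genes left out of scaling (9.22% of all genes) and with no filter on low counts (6.83%). On the lower side, 2 members (4.76%) passed an unadjusted p of 0.05 with the effective length offset and 2 with the deposited gene table. Over all genes the shares were 6.39 and 6.32%. Members with every KO library below WT also numbered 2 in each setting, against 9.55 and 9.12% of all genes. Leaving out 1 library at a time gave 0 to 1 members called higher, 1 to 5 higher and 0 to 20 lower without adjustment, 1 to 6 wholly above and 1 to 24 wholly below WT (over all genes 3.28 to 6.62%, 4.09 to 8.09%, 12.6 to 16% and 12.8 to 16.7%), and a median log2 fold change from -0.289 (without KO 2) to 0 (without KO 1). Without WT 1 and KO 2 together, 1 member was higher and 15 lower without adjustment, 3 lay wholly above and 24 wholly below WT (over all genes 4.34%, 6.24%, 21.5% and 21.8%), and the median was -0.313. KO 2 was the highest KO library for most members, so in fits without it the shares of all genes are no like background. With 1 library left out, Xbp1 ran from -0.009 (without WT 2) to 0.2 (without WT 1), and it reached 0.235 without WT 1 and KO 2 together. Pdia2 and P4hb turned to 0.011 and 0.005 without WT 3 and to 0.032 and 0.046 without KO 1, and had -0.333 and -0.299 without KO 2. Over all genes tested, DESeq2 called 419, edgeR 362 without KO 1, limma-voom 2, edgeR 2 without WT 1 and KO 2 and 1 with no filter. The spliced share of Xbp1 was planned and not run. The lowest value of any member was 22.8 CPM (Dnajb9 in WT 2).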
